A study of Mus musculus with 7 samples.

Results

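Major histocompatibility complex (MHC) and antigen presentation transcripts were followed in 7 Affymetrix arrays of osteoblast-lineage reporter cells sorted from mouse bone marrow stroma. The members were chosen by name, as every probe set whose gene field in the platform annotation holds a symbol starting with H2-, the mouse MHC prefix, or equals one of 16 symbols of the presentation machinery. The rule took 79 of 22626 probe sets. Of these, 38 belonged to class I, 18 to class II, 12 to class I peptide supply and loading, 2 to Cd1d1 and 8 to costimulatory molecules, and 1, H2-Ke6, carries the prefix but is a gene of the region that presents nothing. Psme2 shares its probe set with Psme2b and was therefore no member.

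All arrays came from OsxCre-mCherry;OcnCre-Topaz double transgenic mice 4 to 6 weeks old, taken 6 days after tamoxifen. Topaz Osteocalcin arrays (Ocn+, 3 arrays) hold green cells marked through the osteocalcin promoter, and mCherry Osterix arrays (Osx+, 4 arrays) hold red cells marked through the osterix promoter. Doubly coloured cells are not analysed here. The labels name no strain, sex or batch and do not say whether arrays came from separate animals, so p-values measure only array-to-array spread, part of which may be technical. Values are log2 signals, and no detection calls were used here, so a signal near the bottom of the scale may be background. A mean under 5.67, the 25th percentile over all probe sets, is called dim here, and 28 of the 79 members were dim.

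As background, class I molecules are heavy chains paired with beta-2 microglobulin and show peptides from inside a cell to cytotoxic T cells. Nearly every nucleated cell carries them. The proteasome cuts the peptides, the TAP transporter carries them into the endoplasmic reticulum, and tapasin helps to load them. Class II molecules show peptides taken up from outside to helper T cells and are found mainly on B cells, dendritic cells and macrophages. The invariant chain Cd74 guides them, the DM molecules exchange their peptides, and Ciita switches their genes on. Interferon gamma raises both sets.

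The promoters of 8 of the members with a sequence in the promoter set used are shown, class II first, then class I and loading. Cd74, H2-Ab1, Tap2, Cd86 and Cd1d1 had no sequence there. Sequences are RefSeq's, build GRCm38.p6, from 250 bases before to 50 after the start site, printed 5′ to 3′. Capitals mark, on either strand, an X box (TAGNAACNG), a Y box (CTGATTGG), a kappa B site (GGGGATTCC) or an interferon response element (TTTCACTTC).
H2-Aa, chr17:34287774-34288073, minus strand: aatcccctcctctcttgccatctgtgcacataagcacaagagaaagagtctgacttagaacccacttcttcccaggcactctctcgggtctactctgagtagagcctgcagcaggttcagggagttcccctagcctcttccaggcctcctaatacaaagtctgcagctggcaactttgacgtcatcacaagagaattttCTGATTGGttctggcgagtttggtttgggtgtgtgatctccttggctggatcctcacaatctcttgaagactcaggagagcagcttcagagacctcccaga
H2-Eb1, chr17:34305617-34305916, plus strand: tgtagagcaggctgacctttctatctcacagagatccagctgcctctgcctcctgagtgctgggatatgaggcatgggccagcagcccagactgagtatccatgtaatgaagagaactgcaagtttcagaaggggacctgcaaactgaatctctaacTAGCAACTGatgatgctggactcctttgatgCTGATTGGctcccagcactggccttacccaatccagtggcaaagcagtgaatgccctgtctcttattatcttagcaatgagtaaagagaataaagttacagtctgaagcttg
H2-DMb1, chr17:34152941-34153240, plus strand: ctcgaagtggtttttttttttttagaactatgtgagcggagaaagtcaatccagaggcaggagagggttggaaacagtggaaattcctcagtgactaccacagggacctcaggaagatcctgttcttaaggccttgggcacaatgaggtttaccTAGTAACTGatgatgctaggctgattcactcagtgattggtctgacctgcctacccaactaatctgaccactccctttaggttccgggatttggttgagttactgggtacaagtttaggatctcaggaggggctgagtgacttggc
H2-K1, chr17:34000298-34000597, minus strand: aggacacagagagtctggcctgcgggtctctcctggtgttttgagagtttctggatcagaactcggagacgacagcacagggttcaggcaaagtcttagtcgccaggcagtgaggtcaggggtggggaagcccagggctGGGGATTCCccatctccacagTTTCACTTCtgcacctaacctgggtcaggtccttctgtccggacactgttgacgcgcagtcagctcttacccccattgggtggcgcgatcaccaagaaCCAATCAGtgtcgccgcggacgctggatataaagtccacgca
H2-D1, chr17:35262844-35263143, plus strand: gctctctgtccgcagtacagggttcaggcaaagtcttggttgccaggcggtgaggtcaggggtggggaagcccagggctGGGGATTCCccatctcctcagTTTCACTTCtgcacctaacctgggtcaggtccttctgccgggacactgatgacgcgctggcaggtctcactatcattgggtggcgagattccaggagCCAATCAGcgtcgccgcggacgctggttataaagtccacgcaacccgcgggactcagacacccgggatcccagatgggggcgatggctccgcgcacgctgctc
H2-Q6, chr17:35424600-35424899, plus strand: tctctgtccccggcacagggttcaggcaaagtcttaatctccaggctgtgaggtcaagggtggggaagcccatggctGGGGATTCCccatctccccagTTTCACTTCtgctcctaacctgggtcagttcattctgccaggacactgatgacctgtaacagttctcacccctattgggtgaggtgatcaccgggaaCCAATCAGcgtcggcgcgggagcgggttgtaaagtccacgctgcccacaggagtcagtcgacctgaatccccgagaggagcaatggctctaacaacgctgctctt
H2-T23, chr17:36032652-36032951, minus strand: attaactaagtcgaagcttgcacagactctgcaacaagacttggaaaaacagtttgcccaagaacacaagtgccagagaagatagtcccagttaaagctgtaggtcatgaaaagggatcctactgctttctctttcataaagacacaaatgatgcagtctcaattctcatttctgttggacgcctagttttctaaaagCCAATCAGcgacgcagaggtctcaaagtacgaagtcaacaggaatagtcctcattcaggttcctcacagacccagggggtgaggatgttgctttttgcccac
Tap1, chr17:34187306-34187605, plus strand: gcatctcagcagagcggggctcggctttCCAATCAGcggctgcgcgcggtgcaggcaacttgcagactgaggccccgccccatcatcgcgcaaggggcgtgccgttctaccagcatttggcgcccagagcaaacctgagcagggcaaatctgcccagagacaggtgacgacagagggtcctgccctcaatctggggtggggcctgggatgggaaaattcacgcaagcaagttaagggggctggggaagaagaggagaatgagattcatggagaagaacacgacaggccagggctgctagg
These letters do not overlap one another in the 8 windows. Of 27025 promoters of this length, one window per gene, 3.59% held the X box letters, 4.31% the Y box, 0.259% the kappa B site and 0.522% the interferon response element. Among 29 class I, class II and loading genes with a window, the Y box stood in 13, the interferon response element in 7, the kappa B site in 4 and the X box in 3. The kappa B site was found in H2-K1, H2-D1, H2-Q6 and H2-Q7, each time with the interferon response element downstream of it. The X box was found in the class II genes H2-Eb1 and H2-DMb1, 93 and 96 bases before the start, and on the opposite strand of Psmb8, 244 bases before it. Tap1 and Psmb9 start 226 bases apart on opposite strands, and their windows share 275 bases. Their Y box hits are the same 8 bases, so the 13 count this site for both genes. A match is a description of letters and not a shown binding site. The letters were settled after longer forms had been searched, so the counts are no test against the shares of all promoters.

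No antigen presentation transcript passed the test between Ocn+ and Osx+ cells. With limma and Benjamini-Hochberg adjustment over all 22626 probe sets, 0 members had an adjusted p under 0.05, as 0.0% of all probe sets did. The smallest adjusted p of a member was 0.806, for a Cd86 probe set. At an unadjusted limma p under 0.05, 5 of 79 members were found, against 4.85% of all probe sets. Of the 5, 3 were brighter and 2 dimmer in Ocn+ cells, where the whole table gave 3.09% and 1.76%. Groups without overlap, all 3 Ocn+ arrays above or below all 4 Osx+ arrays, were seen for 3 members (3.8%), against 6.55% of all probe sets. A difference above 0, meaning brighter in Ocn+ cells, was found for 41 of 79 members and for 50.2% of all probe sets. The median difference was 0.04 for the members and 0.0 for all probe sets.

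Class I light chain and classical heavy chains were among the bright transcripts of both groups and differed little. The brighter B2m probe set stood at 14.04, 14.06 and 14.08 in Ocn+ replicates 1 to 3 and at 14.16, 14.17, 14.01 and 13.97 in Osx+ replicates 1 to 4. The Osx+ arrays surrounded the Ocn+ arrays, and the difference was -0.02 (SE 0.14, limma adjusted p = 1.0). The other B2m probe set also differed by -0.02 (SE 0.14).

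H2-K1 encodes a classical heavy chain. Its brightest probe set read 12.91, 12.52 and 12.75 in the Ocn+ arrays and 12.94, 12.46, 13.32 and 12.26 in the Osx+ arrays, with group means of 12.73 ± 0.20 (SD, n = 3) and 12.74 ± 0.48 (SD, n = 4). Its difference was -0.02 (SE 0.28). The second brightest read 12.80, 12.28 and 12.50 against 12.52, 12.36, 12.86 and 11.76, a difference of 0.15 (SE 0.28). The groups overlapped in both, and in both Osx+ replicate 3 was the brightest and replicate 4 the dimmest array. The third differed by 0.22 (SE 0.26) and the last, a dim one, by -0.13 (SE 0.25).

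H2-D1, the other classical heavy chain, had 9 probe sets of its own. The brightest read 13.21, 12.85 and 13.04 in the Ocn+ arrays and 13.25, 12.83, 13.55 and 12.61 in the Osx+ arrays. Its difference was -0.03 (SE 0.26), with the Osx+ arrays on both sides of the Ocn+ arrays. The second brightest differed by -0.05 (SE 0.26) and the third by -0.17 (SE 0.41). The largest difference among the H2-D1 probe sets was -0.51 (SE 0.24), for a dim one at 5.22 ± 0.17 (SD, n = 3) against 5.73 ± 0.39 (SD, n = 4). Many of these probe sets carry the suffix _x_at, which marks probes shared with related sequences, so signals of H2-K1, H2-D1 and their relatives may be mixed. Over all 38 class I probe sets the median difference was -0.03, with 15 above and 23 below 0.

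Nonclassical class I genes held 3 of the 5 members with an unadjusted limma p under 0.05. That is 3 of 22 probe sets (13.6%), all brighter in Ocn+ cells, against 3.09% of all probe sets. H2-T23 encodes Qa-1, a ligand of inhibitory receptors of NK cells, and its bright probe set is shared with H2-T-ps. It read 10.05, 9.50 and 9.92 in the Ocn+ arrays and 9.43, 8.68, 8.09 and 8.41 in the Osx+ arrays. All 3 Ocn+ arrays lay above all 4 Osx+ arrays, which 3.99% of all probe sets showed. The difference was 1.17 (SE 0.33), or 2.25-fold, with an unadjusted limma p of 0.00951 and an adjusted p of 0.85. The other probe set of the pair was dim and differed by -0.09 (SE 0.16).

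The probe set shared by H2-Q6, H2-Q8 and H2-Q4 likewise had no overlap. It read 10.82, 9.78 and 10.11 in the Ocn+ arrays and 9.33, 9.59, 9.41 and 9.26 in the Osx+ arrays, a difference of 0.84 (SE 0.26, limma adjusted p = 0.928). It was 0.55 without Ocn+ replicate 1, the brightest array. A second probe set of H2-Q6 and H2-Q8 read 9.05, 7.28 and 8.02 against 8.19, 7.15, 7.80 and 6.41, so there the groups overlapped, with a difference of 0.73 (SE 0.54). H2-Q10 read 5.95, 5.49 and 6.42 against 5.81, 4.66, 4.51 and 5.05, close to the bottom of the scale. Its difference was 0.95 (SE 0.37) with an unadjusted limma p of 0.0359 and an adjusted p of 1.0, and Osx+ replicate 1 lay within the Ocn+ range. Of the 22 nonclassical probe sets, 11 were above and 11 below 0, and 13 were dim. H2-M3, which presents N-formylated bacterial peptides, differed by 0.60 (SE 0.34). Endothelial and neutrophil markers were brighter in the same direction as H2-T23. The mean of 10 endothelial markers ran from 9.81 to 10.51 in the Ocn+ and from 6.04 to 9.09 in the Osx+ arrays, with all 10 above 0, and that of 9 neutrophil markers from 11.42 to 11.64 and from 7.50 to 11.04, with all 9 above 0. None of these markers was dim. In Osx+ replicates 1 to 4 the endothelial mean was 7.73, 6.04, 9.09 and 6.85. The neutrophil mean in these arrays was 9.35, 11.04, 8.20 and 7.50. Of 5 T and NK cell markers 4 were above 0, and 4 of the 5 were dim. Of 3 monocyte markers 3 were below 0. The part of these cell types in the H2-T23, H2-Q and Cd1d1 values was not tested.

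The supply of class I peptides showed small differences with wide errors in the fit by group alone. Psmb8, Psmb9 and Psmb10 are the catalytic subunits of the immunoproteasome, and Psme1 is a subunit of its activator. Psmb8 read 10.20, 8.97 and 9.42 in the Ocn+ arrays and 10.25, 9.13, 8.51 and 7.52 in the Osx+ arrays. Its difference of 0.68 (SE 0.63) was 0.23 without Osx+ replicate 4. Psme1 read 13.13, 12.75 and 12.82 against 12.90, 12.31, 12.92 and 12.20, a difference of 0.32 (SE 0.24). Erap1, which trims peptides in the endoplasmic reticulum, read 7.27, 6.19 and 6.75 against 7.69, 6.90, 6.99 and 7.08, a difference of -0.42 (SE 0.31), which was -0.15 without Ocn+ replicate 2. The groups overlapped in all 12 loading probe sets. Psmb9 differed by 0.47 (SE 0.69), Psmb10 by 0.38 (SE 0.44), the bright Tap1 probe set by 0.34 (SE 0.60), Tap2 by 0.33 (SE 0.54) and the bright tapasin (Tapbp) probe set by 0.16 (SE 0.19). The median over the 12 loading probe sets was 0.24, and it was 0.02 without Osx+ replicate 4 and 0.03 without Ocn+ replicate 1. Psme2 with Psme2b differed by 0.30 (SE 0.22). With a term for the Xist split of the arrays, described below, Psme1 differed by 0.41 (SE 0.12). In that fit 4 of 12 loading probe sets (33.3%) had an unadjusted limma p under 0.05, against 15.4% of all probe sets. Of all 79 members 13 (16.5%) did, and 0 passed after adjustment.

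Of the 18 class II probe sets 7 were dim. The others, except those of H2-Eb1 and of H2-DMb2 alone, were lowest in Osx+ replicate 4. Cd74 read 12.29, 11.46 and 11.76 in the Ocn+ arrays and 11.93, 11.66, 11.79 and 9.41 in the Osx+ arrays, a difference of 0.64 (SE 0.63, limma adjusted p = 1.0), and 0.04 without Osx+ replicate 4. The first 3 Osx+ arrays lay inside the Ocn+ range and the fourth far below it. H2-Ab1, the beta chain of the A molecule, read 10.65, 9.13 and 9.44 against 10.55, 9.59, 10.18 and 7.40 in its brightest probe set, a difference of 0.31 (SE 0.78). Its second read 8.98, 7.62 and 7.88 against 9.25, 7.86, 8.56 and 5.94, a difference of 0.26 (SE 0.78). The groups overlapped in both, with Osx+ replicate 4 lowest. Without that array the difference of the brightest probe set was -0.36. The third read 7.37, 6.57 and 6.60 against 7.80, 6.77, 8.24 and 6.19, a difference of -0.41 (SE 0.52).

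H2-Aa, the alpha chain of the same molecule, read 10.40, 9.25 and 9.53 against 10.44, 9.86, 9.06 and 6.69 in its brighter probe set, a difference of 0.71 (SE 0.86), which was -0.06 without Osx+ replicate 4. In the dimmer one it read 9.56, 8.33 and 8.46 against 9.36, 8.74, 9.66 and 6.51, a difference of 0.22 (SE 0.77), which was -0.47 without that array. The groups overlapped in both. H2-Eb1, the beta chain of the E molecule, read 10.22, 8.82 and 9.37 against 9.94, 9.34, 6.25 and 7.25. Its difference of 1.28 (SE 0.92, limma adjusted p = 1.0) was the largest of the class, and it was 0.63 without Osx+ replicate 3. H2-Ea, the alpha chain of the E molecule, was near the bottom of the scale in its 3 probe sets, with group means of 5.53 and 5.58, 4.50 and 4.46, and 3.48 and 3.58 (Ocn+ and Osx+ in turn).

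Of the 6 probe sets of the exchange chaperones, those of H2-DMa and those shared by H2-DMb1 and H2-DMb2 lay in the middle of the scale. The 2 of H2-Oa and H2-Ob were dim, and that of H2-DMb2 alone had a mean of 5.71, just above the cut. H2-DMa read 8.56, 8.08 and 8.38 against 9.82, 9.25, 8.37 and 7.53, a difference of -0.40 (SE 0.52). The brighter probe set shared by H2-DMb1 and H2-DMb2 read 9.25, 8.78 and 8.93 against 8.60, 9.20, 9.15 and 7.83, a difference of 0.29 (SE 0.35). The other shared one read 8.44, 7.80 and 8.16 against 7.77, 8.55, 8.67 and 6.99, a difference of 0.14 (SE 0.43). The groups overlapped in all of these, with Osx+ replicate 4 lowest. Without that array the H2-DMa difference was -0.80. The probe set of H2-DMb2 alone read 5.82, 6.01 and 5.68 against 5.70, 5.61, 5.50 and 5.67. H2-Oa, a chain of the DO inhibitor of DM, read 5.33, 5.44 and 4.67 against 5.06, 4.45, 6.82 and 4.64, so Osx+ replicate 3 was the brightest array. H2-Ob read 5.60, 5.49 and 5.62 against 6.53, 5.47, 5.31 and 5.54.

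Ciita, the transactivator of class II genes, was dim in every array. Its dimmer probe set read 5.22, 4.84 and 4.72 against 4.87, 4.40, 4.63 and 4.50, and the other read 5.40, 5.04 and 4.64 against 5.22, 5.03, 4.94 and 5.43. Over the 18 class II probe sets the median difference was 0.18, with 11 above and 7 below 0. It turned to -0.11 without Osx+ replicate 4 and to -0.15 without Ocn+ replicate 1, so no direction is given for class II.

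Cells that carry class II by profession were looked for by their markers, since a sort may hold other cell types. The mean of 13 measured macrophage markers ran from 8.77 to 9.998 in the Ocn+ arrays and from 10.06 to 11.27 in the Osx+ arrays. Of these 13, 6 were lower in Ocn+ cells at an unadjusted limma p under 0.05, against 1.76% of all probe sets, and 0 after adjustment. The mean of 5 pan-blood-cell markers ran from 10.27 to 10.74 and from 9.68 to 11.28. Osx+ replicate 4 was lowest, the array that was also lowest for Cd74. Osx+ replicate 3 was next, with a mean of 10.16, also below the Ocn+ range, but its Cd74 value of 11.79 was within the Ocn+ range. In Osx+ replicate 4 Spi1, a transcription factor of myeloid and B cells, read 7.21, against 8.62 to 10.06 in the other Osx+ arrays. Ptprc, another of the 5, read 6.41 there, above its 5.50, 5.07 and 6.34 in the Ocn+ arrays. The macrophage marker mean of 10.06 was that of the same array. The mean of 8 dendritic cell markers was 6.06 to 6.91 and 5.98 to 7.05, and that of 8 B cell markers 5.69 to 6.46 and 5.69 to 7.02, with 4 of 8 markers dim in each list. The mean of 7 osteoblast markers was 12.94 to 13.53 in the Ocn+ and 12.49 to 13.57 in the Osx+ arrays. The part of blood cells in the class II signal was not tested, and in bulk samples fewer cells of a type and less RNA per cell cannot be told apart.

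Cd86 had the smallest p of all members, with the lower values in Ocn+ cells, and did not pass the adjusted threshold. It encodes a costimulatory ligand of antigen-presenting cells. Its dimmer probe set read 6.75, 5.47 and 6.06 in the Ocn+ arrays and 8.16, 8.23, 7.43 and 7.06 in the Osx+ arrays. The groups did not overlap, with Ocn+ lower, as in 2.56% of all probe sets. The difference was -1.63 (SE 0.40), with an unadjusted limma p of 0.00487 and an adjusted p of 0.806. The brighter one read 7.65, 6.19 and 7.0 against 9.54, 9.59, 7.63 and 8.25, so Osx+ replicate 3 fell just inside the Ocn+ range, and its difference was -1.81 (SE 0.58, limma adjusted p = 0.959). Of 13 macrophage markers 11 were below 0 as well. The other 2, Csf1r and Cd68, differed by 0.28 (SE 0.39) and 0.26 (SE 0.40). C1qa, a complement gene of macrophages and one of the 11, read 10.62, 8.37 and 10.10 against 12.26, 11.72, 10.90 and 10.31. The part of macrophages in the Cd86 difference was not tested.

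For the other costimulatory genes no unadjusted limma p was under 0.05. Cd80, the second ligand of the same receptors, had 4 probe sets, of which 3 were dim. The brightest read 6.28, 5.83 and 6.25 against 8.04, 7.32, 5.84 and 6.92, a difference of -0.91 (SE 0.48, limma adjusted p = 1.0). It was -0.57 without Osx+ replicate 1 and -1.30 without Osx+ replicate 3. Cd40, a receptor through which T cells activate presenting cells, read 10.06, 9.09 and 8.64 against 9.45, 8.08, 10.25 and 8.13 in the first of its probe sets. The groups overlapped, and the difference was 0.29 (SE 0.62). The other Cd40 probe set differed by 0.63 (SE 0.70).

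Cd1d1 presents lipids to natural killer T cells. Its brighter probe set read 11.20, 11.55 and 11.44 in the Ocn+ arrays and 9.46, 8.94, 11.31 and 11.15 in the Osx+ arrays. Osx+ replicates 3 and 4 stood at or near the Ocn+ level and replicates 1 and 2 far below it. The difference was 1.18 (SE 0.61, limma adjusted p = 1.0), and 0.76 without Osx+ replicate 2. In the second probe set Osx+ replicates 1 and 2 were again the lowest arrays, with 8.85, 9.63 and 9.29 against 7.91, 7.13, 9.28 and 9.0, a difference of 0.93 (SE 0.53), and 0.53 without Osx+ replicate 2. H2-Ke6, an enzyme gene within the MHC region, read 10.94, 10.48 and 10.39 against 10.23, 9.68, 10.54 and 9.88, a difference of 0.52 (SE 0.26, limma adjusted p = 1.0).

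Probe sets of a single gene did not always keep their distance from array to array, and Osx+ replicate 3 held several of the extremes. Both H2-Aa probe sets measure the same gene, and the brighter minus the dimmer was 0.84, 0.92 and 1.06 in the Ocn+ arrays and 1.08, 1.13 and 0.18 in Osx+ replicates 1, 2 and 4. In Osx+ replicate 3 the gap was -0.60, the one array in which their order turned. H2-Eb1 was lowest there, at 6.25, while the brightest H2-Ab1 probe set was at 10.18. H2-Q5, a nonclassical gene picked after its values were seen, read 7.02, 5.37 and 5.03 in the Ocn+ arrays and 7.51, 5.03, 10.18 and 7.53 in the Osx+ arrays. A probe set shared by H2-Q5 and H2-K1 read 9.61 in Osx+ replicate 3 and 4.49 to 6.54 in the other arrays. Other pairs of probe sets varied to different degrees. The gap between both brightest H2-D1 probe sets lay between 0.49 and 0.57 in all arrays, while that between the brightest and the third ran from 1.12 in Osx+ replicate 3 to 2.09. The gap between both dimmer H2-Ab1 probe sets was -0.25 in Osx+ replicate 4, 0.32 in Osx+ replicate 3 and 1.05 to 1.61 in the other arrays. Outside the MHC, the brighter Cd86 probe set minus the dimmer was 0.20 in Osx+ replicate 3 and 0.72 to 1.38 elsewhere. MHC alleles differ between mouse strains, and a probe reads the allele it was made for. Whether alleles differed between these samples was not tested.

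A split of the arrays that crosses the groups moved members mostly in one direction. Xist, a transcript of the inactive X chromosome of female cells, was low in Ocn+ replicate 1 and Osx+ replicates 1 and 3 (4.87 to 5.79) and high in the other 4 arrays (12.33 to 12.96). The coefficient of this class, read after the data were seen from a limma fit with group and class as terms, had an adjusted p under 0.05 for 17 of 79 members (21.5%) and for 27.7% of all probe sets. Of the 17, 16 were brighter in the low-Xist arrays and 1 was dimmer. Over all probe sets 13.8% were brighter and 13.9% dimmer, so the members' share was 20.3% in the first direction and 1.27% in the second. Members in general were brighter in low-Xist arrays, 69 of 79 (87.3%) with a median of 0.43, where 57.0% of all probe sets were brighter and their median was 0.08. A difference of the group effect between Xist classes had an adjusted p under 0.05 in limma for 0 of 79 members (0.0% of all probe sets) and an unadjusted p under 0.05 for 2 (2.53%), against 4.18% of all probe sets.

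Class I peptide supply held 5 of the 17. That is 5 of its 12 probe sets (41.7%), all brighter in low-Xist arrays, against 13.8% of all probe sets. Tap2, a subunit of the peptide transporter, lay between 8.91 and 9.28 in the low-Xist and between 7.23 and 8.15 in the high-Xist arrays, a difference of 1.39 (SE 0.16, limma adjusted p = 0.00511). Tap1, the other subunit (its brightest probe set), lay between 10.54 and 10.89 and between 8.84 and 10.08, a difference of 1.49 (SE 0.23, limma adjusted p = 0.00852). Psmb9, which shares the promoter region printed for Tap1, differed by 1.49 (SE 0.43), Psmb10 by 1.07 (SE 0.18) and Psme1 by 0.53 (SE 0.12). Both Cd40 probe sets, 2 of the H2-Ab1 probe sets, H2-Ke6 and 6 probe sets of class I heavy chains were the others that were brighter. H2-T24 was the member that ran the other way, at 6.30 to 7.50 in low-Xist and 8.39 to 9.07 in high-Xist arrays. What else sets these arrays apart was not tested.

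Partner genes outside the rule gave no call between the groups. Of 8 measured class I partners, namely endoplasmic reticulum chaperones and constitutive proteasome subunits, 4 were above and 4 below 0, and 0 passed in limma after adjustment or at an unadjusted p under 0.05. Canx (calnexin) differed by -0.37 (SE 0.29), and Psmb6, the brightest, by 0.13 (SE 0.15). Of 7 class II partners 0 passed in limma, adjusted or unadjusted. Ctss, the protease that cleaves the invariant chain, read 11.91, 11.35 and 12.20 against 13.29, 13.50, 11.99 and 12.26, a difference of -0.94 (SE 0.43), and Ifi30, a lysosomal reductase, differed by 0.31 (SE 0.25). Of 4 class I-like genes and 7 other costimulators 0 passed in limma, adjusted or unadjusted, with 2 and 4 above 0. Of 15 interferon gamma pathway genes 0 passed in limma, adjusted or unadjusted, with 11 above and 4 below 0. Irf1, a transcription factor induced by interferon, differed by 0.44 (SE 0.38). For the Xist class term 7 of the 15 were brighter and 1 dimmer in low-Xist arrays at an adjusted limma p under 0.05. The shares of all probe sets were 13.8% and 13.9%. Cxcl10, an interferon-induced chemokine taken after its values were seen, read 13.04 in Ocn+ replicate 1, 12.83 in Osx+ replicate 1 and 12.89 in Osx+ replicate 3, and 11.54 to 12.02 in the 4 high-Xist arrays.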

How the data were processed

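The deposited table holds log2 signals per probe set, which the authors deposited after RMA summarisation, the tool named in the submitters' processing notes (version: not given in the sources used here). Per the labels' protocols, RNA was amplified by the NuGEN Ovation V2 method. Of 22690 probe sets 64 controls were left out. Median log2 signal per array was 8.25 to 8.35. Precision is limited by the small number of arrays.

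Ocn+ minus Osx+ was fitted over 22626 probe sets with limma 3.58.1 (R 4.3.3, lmFit and eBayes, no block), 2-sided, with Benjamini-Hochberg adjustment and a threshold of 0.05. No set test was run. Members and lists were chosen with earlier results of these data known. The rule for named members took all class II probe sets, H2-K1, H2-D1 and B2m, and the 3 of smallest p in each other group. From each list of partner genes it took up to 3 of smallest p and the brightest. Not all of these are printed. Some dim or redundant ones are given by difference only, and several H2-D1 probe sets and most partner genes are left out. List genes were represented by the probe set of highest mean with 1 symbol. Alternatives were the replicate block, leaving out arrays, signal filters, normalization, prior, array weights, 1 probe set per gene, a term for Xist class, cut at a log2 signal of 8, and a threshold of 0.1. On simulated data with 200 changed of 22626 probe sets, the fit recovered 62.2% of changes of 2 log2 units and 19.7% of changes of 1, with 7.2 false calls per run. The simulated noise was independent for each probe set and held no split such as that by Xist, so recovery in the real arrays may differ. The median SE was 0.27 over all probe sets and 0.77 over the class II peptide-presenting chains, so these recovery shares are no measure for such members. Promoter motifs were shortened to at most 9 letters after longer forms had been searched.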

Additional observations from a re-analysis of the deposited data

Results flagged for a closer look

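In the 4 Osx+ arrays, 4 of 79 members (5.06%) had 1 array far from the other 3 by Dixon's ratio. For independent, normal values chance flags about 1 in 20 groups. The share over all probe sets was not computed. Cd74 was at 9.41 in Osx+ replicate 4 and at 11.66 to 11.93 in the others. A dim probe set of H2-T9, H2-T22 and H2-T10 was at 6.59 in Osx+ replicate 1 and at 4.40 to 4.69 in the others. The dimmest Cd80 probe set was at 4.29 in Osx+ replicate 1 against 3.73 to 3.79, and H2-M9 at 3.75 in Osx+ replicate 2 against 4.15 to 4.22. The Ocn+ group, with 3 arrays, was not tested.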

How the results depend on the processing

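Member probe sets called stayed at 0 under each alternative tried, the smallest adjusted limma p of a named member being 0.0857, for H2-T23 with array weights. Over all probe sets limma called 68 with array weights and 1 with the Xist class term, and 0 to 5 when 1 array was left out (2 without Osx+ replicate 2, 5 without Osx+ replicate 3), against 0 with all arrays. Deviations of same-numbered arrays correlated at 0.66, 0.48 and -0.36, so the numbers were not taken as pairs. With the replicate number as a block 0 probe sets were called, and the class II median was -0.11. The class I median ran from -0.15 within low-Xist to 0.19 within high-Xist libraries, and the loading median from 0.02 to 0.43. All moves were smaller than 1 SD between arrays of the class median, 0.44 for class I and 0.89 for loading. These SDs exceed the main differences of -0.03 and 0.24, so staying within them cannot show stability. Of 769 values of named members under alternatives, 82 changed sign, each from a difference within 1 standard error of 0; no larger one did. The H2-T23 difference was 0.98 to 1.43 and that of the dimmer Cd86 probe set -1.96 to -1.05. A within low-Xist value rests on a single Ocn+ array.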
